A study of Equus caballus with 68 samples.

Results

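A group of 10 genes of lipid-sensing transcription was followed in equine bone marrow mononuclear cells (BMNC) during culture in synovial fluid. The group held the peroxisome proliferator-activated receptors PPARA, PPARD and PPARG, the retinoid X receptors RXRA and RXRB, the liver X receptors NR1H2 (LXR beta) and NR1H3 (LXR alpha), and the coactivators PPARGC1A (PGC-1 alpha), PPARGC1B (PGC-1 beta) and NCOA2. The genes were listed by symbol, with earlier results of these data known. Each of the 10 symbols was held by 1 entry of the 30371 in the expression table, 24065 of them with a value other than 0 in some library. All 10 passed the filter on low values, which left 14570 genes to test.

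PPARs and LXRs are nuclear receptors, that is, transcription factors switched by lipids. PPARs are bound by fatty acids and their derivatives and LXRs by oxidised cholesterol, and both bind DNA as a pair with an RXR. In macrophages, PPARG and the LXRs are known for driving genes of lipid uptake, fatty acid handling and cholesterol export, and for restraining inflammatory genes. Coactivators such as the PGC-1 proteins and NCOA2 carry no ligand pocket of their own: they dock on ligand-bound receptors and recruit the machinery that opens chromatin and starts transcription.

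BMNC came from the sternal marrow of 8 Thoroughbred horses, 2 females and 6 geldings of 3 to 9 years, and were separated by density gradient. Each horse's cells were sequenced before culture (0 h, 8 libraries) and after culture in that horse's own undiluted synovial fluid, with no pooling between horses. Normal fluid (SF) was drawn from middle carpal joints. Inflamed fluid (ISF) was drawn from radiocarpal joints after injection of lipopolysaccharide, so that ISF and SF also differed in the joint they came from. Cultures were harvested at 48 hours (7 libraries in each fluid), 96 hours (8 in each), 6 days (8 in each) and 10 days (7 in each), which gave 68 libraries in 9 groups. The horses named Flash and Moon had no libraries at 10 days and 48 hours, respectively. No horse contributed more than 1 library per condition, so the replicates were animals. BMNC are a mixed population, and in such bulk samples fewer cells of a type and less RNA per cell cannot be told apart.

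Levels are given as GeTMM, the depositors' expression value scaled for gene length and library size, which allows levels to be compared between genes. Between 15653436 and 35971635 reads per library lay on genes. Differences are given on the log2(GeTMM + 1) scale with standard errors (SE) from limma, and a gene was called where its adjusted p (Benjamini-Hochberg, over 14570 genes) was under 0.05. The +1 makes these differences smaller than the true log2 ratio for genes of low level. The SF library of Moon at 6 days stood apart from all others, at a root mean square distance of 1.57 from its group against 0.638 for the next library. The ISF libraries labelled Dealings and Dreamer at 96 hours each resembled the other horse's libraries more than their own, while the remaining 66 libraries matched their labelled horse. Where leaving them out changed the call or direction of a difference between fluids, or ended a call over time, this is stated beside the result.

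Before culture, the 10 genes spanned a wide range of levels. RXRA was highest, with a median of 95.4 GeTMM, followed by NR1H2 at 46.0, NCOA2 at 28.5 and RXRB at 23.9, of which NCOA2 and RXRB overlapped, NCOA2 being the higher in 5 of 8 horses. PPARD (12.5 GeTMM) and NR1H3 (11.4 GeTMM) were next and did not separate, PPARD being the higher of them in 5 of 8 horses. PPARG had a median of 6.71 GeTMM, PPARA of 3.77 and PPARGC1B of 1.71. PPARGC1A was nearly absent, with a median of 0.0701 GeTMM and between 0 and 6 reads per library.

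After 10 days the order had changed in both fluids. In ISF, NR1H3 led at a median of 162 GeTMM and was above RXRA (101 GeTMM) in 7 of 7 horses. In SF, RXRA (97.3 GeTMM) and NR1H3 (85.4 GeTMM) had overlapping ranges, and RXRA was the higher in 5 of 7 horses. PPARGC1A had moved from the lowest place to a median of 14.8 GeTMM in ISF, above PPARD (13.7 GeTMM) in 4 of 7 horses. NCOA2, at 28.5 GeTMM before culture, was at 5.74 GeTMM in ISF, and PPARA (4.83 GeTMM) lay below it in 5 of 7 horses. In the plot of levels over time, the gain of NR1H3, PPARG and PPARGC1A and the decline of RXRB and NCOA2 run through both fluids.

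**Figure D1:**
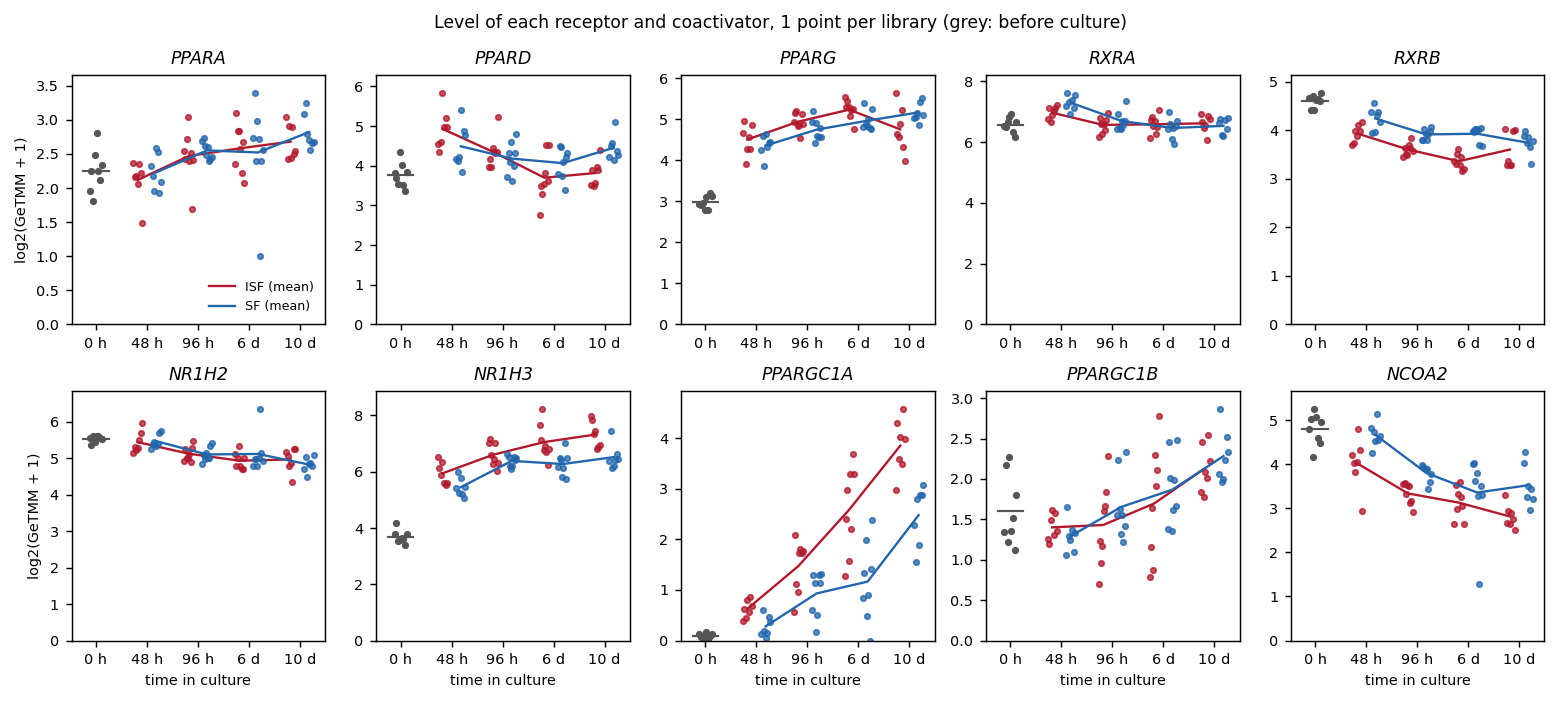
Level of each of the 10 genes as log2(GeTMM + 1) against time in culture, 1 point per library, in ISF (red), SF (blue) and before culture (grey, bar at the mean), with lines joining group means. NR1H3, PPARG and PPARGC1A lie higher in culture than at 0 h, RXRB and NCOA2 end lower, and the lowest blue points at 6 days in the PPARA and NCOA2 panels are the SF library of Moon.

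The comparison of ISF with SF at each time point asks how cells in inflamed fluid differed from cells of the same age in normal fluid. At 48 hours, 0 of the 10 genes were called by limma, where 1.68% of all tested genes were. At an unadjusted p under 0.05 there were 4, and limma-voom on recovered read counts also called 0. At 96 hours, 1 gene was called (RXRB, lower in ISF), against 10.5% of all genes. At 6 days, 3 genes were called, PPARGC1A and NR1H3 higher and RXRB lower in ISF, against 30.2% of all genes. At 10 days, 4 genes were called, PPARGC1A and NR1H3 higher and NCOA2 and PPARD lower in ISF, against 20.8% of all genes. The count at 6 days was thus the background share, and that at 10 days was above it by fewer than 2 genes. The counts moved with single horses: that at 96 hours was 0 without Catnip, Dealings, Dreamer, Flash, Lurie or RimRun, that at 6 days was 5 without Moon, and that at 10 days was 2 without Dealings, Lurie or Ollie. Without Moon's SF library of 6 days the counts were 1, 1, 4 and 5 in order of time, against 5%, 16.7%, 36.2% and 28.3% of all genes. Over the 4 time points the median difference of the 10 genes lay between -0.14 and 0.04, and that of all genes between -0.02 and 0.

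Differences taken within each horse were more uniform at the early times. An exact sign-flip permutation test (two-sided) was run for each gene and time point, 40 tests in all, in which 7 horses allow no p below 0.0156 and 8 horses none below 0.00781. Of the 40, 14 reached an adjusted p of 0.0446 by this exact test, and 16 had an unadjusted p under 0.05. It was run for the 10 genes alone, so no share over all genes can be set beside these counts or the counts of horses below. At 48 hours all 7 horses had more PPARD, PPARGC1A and NR1H3 RNA in ISF, and all 7 had less RXRA, RXRB and NCOA2. At 96 hours all 8 horses, as labelled, had less RXRB and NCOA2 in ISF. Among these are Dealings and Dreamer, whose ISF libraries at that time each resembled the other horse, so their pairs may not be within 1 horse. At 6 days PPARGC1A was higher in ISF in 8 of 8 horses, NR1H3 in 7 of 8 and RXRB in 0 of 8. At 10 days PPARGC1A and NR1H3 were higher in ISF in 7 of 7 horses and NCOA2 in 0 of 7. Under the adjustment these calls stand or fall together: leaving out any 1 horse, or both libraries of doubtful identity (Dealings and Dreamer), or rescaling the libraries by medians of ratios, left 0 of the 14. Leaving out libraries removes pairs and so raises the smallest possible p. The libraries of doubtful identity enter only the pairs at 96 hours, and the differences and unadjusted p at the other times were the same without them. These losses therefore cannot show that the differences depend on the libraries left out.

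**Figure D2:**
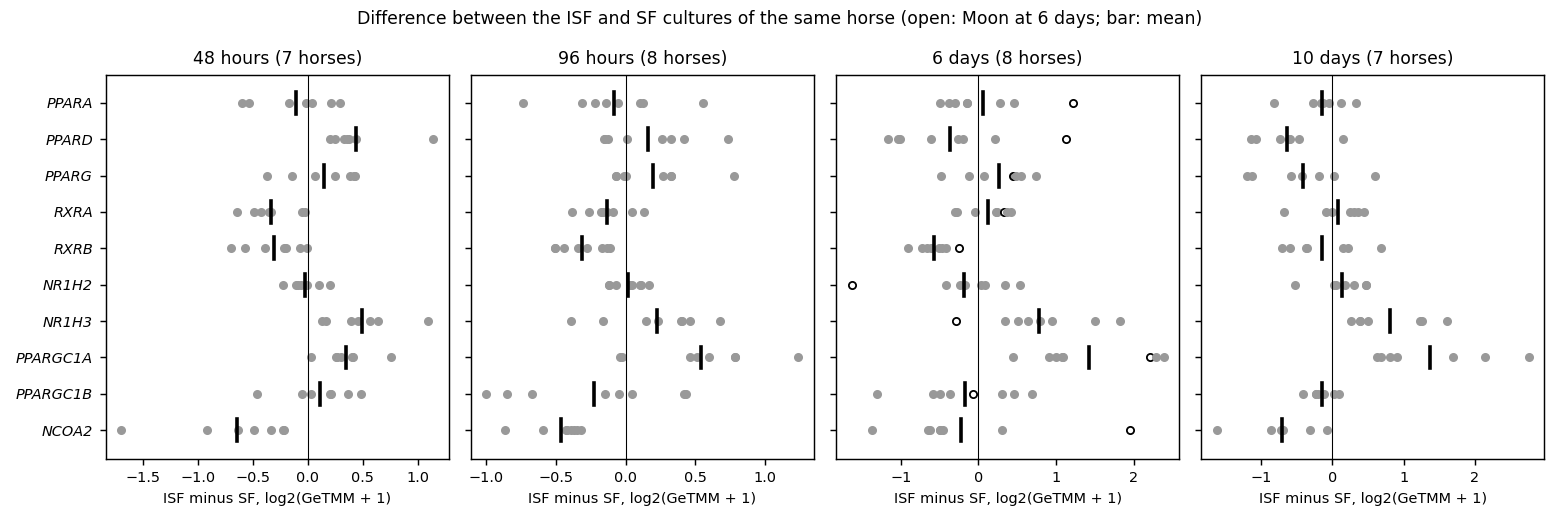
Each horse's ISF culture minus its SF culture, in log2(GeTMM + 1), for each gene in 1 panel per harvest, with 1 grey point per horse, a bar at the mean and Moon at 6 days drawn open. With horses as labelled, RXRB lies left of 0 in all of them at 48 hours, 96 hours and 6 days. PPARGC1A lies right of 0 in all horses at 6 and 10 days, and the open point is far from the others for NCOA2, NR1H2 and PPARA.

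The difference between fluids was not shown to change from one time point to the next for any of the 10 genes. The change of the ISF to SF difference was called by limma for 0 of 10 genes from 48 to 96 hours (0.0206% of all genes, and 0 of 10 at an unadjusted p under 0.05). It was called for 0 of 10 from 96 hours to 6 days (0% of all genes, 881 of them at an unadjusted p under 0.05, with 1 of the 10 genes among these). From 6 to 10 days it was called for 0 of 10 (0.226% of all genes, 2 of the 10 at an unadjusted p under 0.05). Limma-voom also called 0 in each interval. The 2 genes of the last interval were PPARG, whose difference moved by -0.68 ± 0.22 (SE, adjusted p = 0.135, limma), and RXRB, whose difference moved by 0.43 ± 0.15 (adjusted p = 0.172). With library weights PPARG was called in this interval (adjusted p = 0.0439).

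The comparisons over time ask how BMNC changed as culture went on, within each fluid. In ISF, 6 of the 10 genes were called from 0 to 48 hours (52.7% of all genes), 6 from 48 to 96 hours (19% of all genes), 1 from 96 hours to 6 days (6.38% of all genes) and 2 from 6 to 10 days (10.5% of all genes). In SF, 5 were called from 0 to 48 hours (45.4% of all genes), 5 from 48 to 96 hours (27.3% of all genes), 0 from 96 hours to 6 days (2.05% of all genes) and 1 from 6 to 10 days (4.78% of all genes). The count of ISF from 48 to 96 hours was the least stable of these. It was 0 without Lurie, 2 without Dreamer, 3 without Ollie and 2 without both libraries of doubtful identity, and 8 without Moon. For SF from 48 to 96 hours it was 3 without Catnip, Dreamer or Lurie, for ISF from 96 hours to 6 days 2 without Moon, and for ISF from 6 to 10 days 1 without Dealings, Dreamer, Flash, Ollie or RimRun. For the 0 genes called in SF from 96 hours to 6 days by limma, 0 had an unadjusted p under 0.05 and limma-voom called 0. Over the whole culture, from 0 h to 10 days, 8 genes were called in ISF (74.5% of all genes) and 9 in SF (69.6% of all genes). The comparisons that start at 0 h share the same 8 uncultured libraries, so the ISF and SF values stand side by side and were not correlated.

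**Figure D3:**
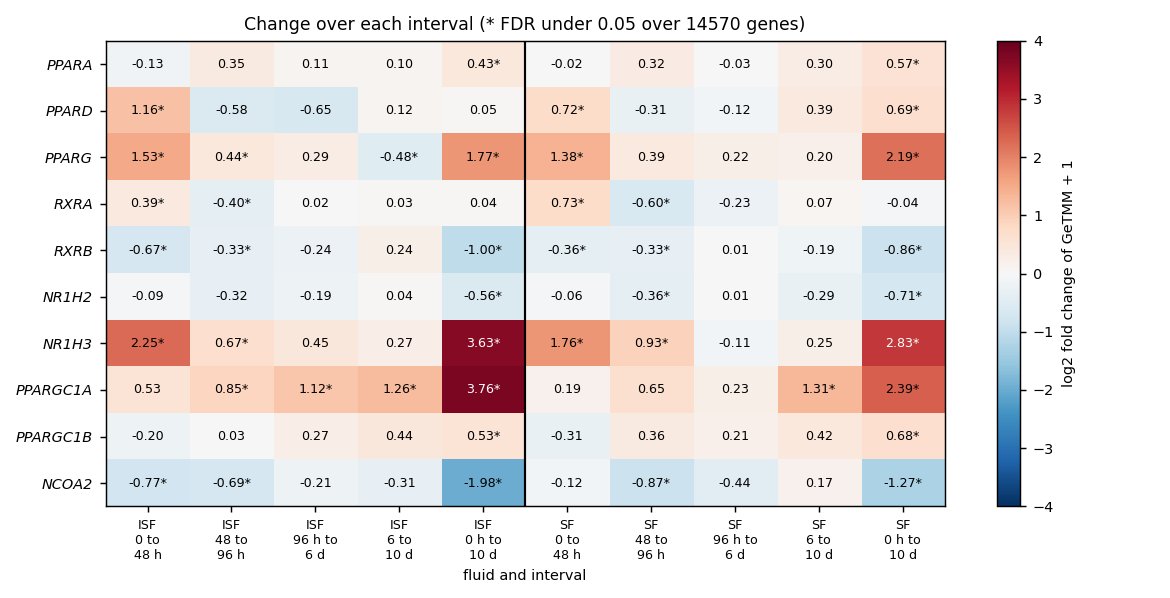
Log2 fold change of GeTMM + 1 of each gene over each interval in ISF (left) and SF (right), with red for a gain, blue for a loss and an asterisk at an adjusted p under 0.05. NR1H3 and PPARG gained most in the first 48 hours, and RXRA gained to 48 hours and lost to 96 hours. PPARGC1A had called gains from 6 to 10 days in both fluids, and the + 1 shrinks its earlier steps, which started from lower levels.

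PPARG, the receptor best known from fat cells and alternatively activated macrophages, rose in both fluids at the start of culture. Its level at 0 h ran from 5.90 to 8.11 GeTMM with a median of 6.71. In ISF it ran from 14.1 to 30.2 (median 22.7) at 48 hours, from 22.3 to 35.5 (29.0) at 96 hours, from 26.0 to 45.7 (37.4) at 6 days and from 14.8 to 48.7 (23.7) at 10 days. In SF it ran from 13.4 to 23.9 (20.5) at 48 hours, from 20.3 to 35.9 (24.9) at 96 hours, from 26.2 to 41.3 (28.0) at 6 days and from 28.1 to 44.9 (33.5) at 10 days. No cultured library reached down to the uncultured range. Within horses the gain from 0 to 48 hours was between 2.06-fold and 4.63-fold in ISF and between 1.97-fold and 4.05-fold in SF, in 7 of 7 horses each. These were log2 changes of 1.53 ± 0.15 in ISF (adjusted p = 4.1e-13, limma) and 1.38 ± 0.15 in SF (adjusted p = 1.7e-11).

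From 6 to 10 days PPARG had a called step in ISF and none in SF, while the change of its fluid difference over that interval was not called, as given above. In ISF it fell by 0.48 on the log2 scale from 6 to 10 days (SE 0.15, adjusted p = 0.03, limma), in 5 of 7 horses, and in SF the same interval gave 0.20 ± 0.15 (adjusted p = 0.438). At 10 days the ISF level was below the SF level in 5 of 7 horses, with a difference of -0.41 ± 0.16 (adjusted p = 0.0515, limma). It was called in 7 of 17 alternatives, among them the fit with the horse as a block (adjusted p = 0.0406) and that without Moon's SF library of 6 days (0.0398). With the horse as a block, the step of 0.39 ± 0.15 from 48 to 96 hours in SF was also called (adjusted p = 0.0414, against 0.0507 without the block). The fall in ISF was not called without Dealings, Dreamer, Flash, Ollie or RimRun, where the adjusted p went up to 0.158, nor when only the 2 groups compared entered the fit. The earlier rise of PPARG from 48 to 96 hours in ISF (0.44 ± 0.15, adjusted p = 0.0347) was lost without Dreamer, Flash, Lurie or Ollie (adjusted p up to 0.246), without the filter on low values and without both libraries of doubtful identity.

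PPARD, the widely expressed PPAR linked to fatty acid oxidation, peaked at 48 hours in ISF. In SF its median was highest at 10 days, but its mean on the log2 scale was not. That mean was 0.72 above 0 h at 48 hours and 0.69 above it at 10 days. It ran from 9.33 to 19.2 GeTMM at 0 h (median 12.5), and from 19.5 to 56.0 (30.7) in ISF and 13.4 to 41.1 (17.7) in SF at 48 hours. The rise from 0 to 48 hours was 1.16 ± 0.22 in ISF (adjusted p = 9.9e-06, limma), in 7 of 7 horses, and 0.72 ± 0.22 in SF (adjusted p = 0.00556), in 6 of 7 horses. At 96 hours the medians were 19.1 in ISF and 17.5 in SF, and at 6 and 10 days the ISF medians lay below the SF medians. At 6 days ISF ran from 5.81 to 22.0 (10.9) and SF from 9.48 to 21.7 (16.8), and at 10 days ISF ran from 10.3 to 20.2 (13.7) and SF from 16.8 to 33.3 (19.6).

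By limma, the PPARD difference between fluids was called at 10 days and at none of the earlier times, and its change from one time point to the next was called in none of the 3 intervals. The difference was 0.44 ± 0.23 at 48 hours (adjusted p = 0.378, limma, ISF higher in 7 of 7 horses) and -0.64 ± 0.23 at 10 days (adjusted p = 0.0382, ISF lower in 6 of 7 horses). The exact sign-flip test gave an adjusted p of 0.0446 at 48 hours and 0.0781 at 10 days. The call at 10 days was lost without Catnip, Dealings, Dreamer, Lurie, Moon or Ollie, with adjusted p values up to 0.128, and without the filter on low values. In ISF the steps from 48 to 96 hours (-0.58 ± 0.22, adjusted p = 0.0532) and from 96 hours to 6 days (-0.65 ± 0.21, adjusted p = 0.0539) missed the threshold, and were called in 7 and 5 of 17 alternatives, both with the horse as a block (adjusted p = 0.0168 and 0.0141). By 10 days PPARD in ISF was 0.05 ± 0.22 from its level at 0 h (adjusted p = 0.846), and in SF it was 0.69 ± 0.22 above it (adjusted p = 0.005), in 7 of 7 horses.

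PPARA, the PPAR of fasting metabolism in liver, was the lowest of the 3 PPARs in every library. It ran from 2.49 to 5.97 GeTMM at 0 h (median 3.77), from 4.40 to 7.25 (4.83) in ISF at 10 days and from 4.90 to 8.52 (5.55) in SF at 10 days. The gain over the whole culture was 0.43 ± 0.19 in ISF (adjusted p = 0.0352, limma) and 0.57 ± 0.19 in SF (adjusted p = 0.00616), each in 6 of 7 horses. The ISF value was lost without Catnip, Dreamer or Ollie (adjusted p up to 0.161), without the filter and with median-of-ratios scaling. No step between neighbouring time points was called, and the difference between fluids lay between -0.14 and 0.06 at the 4 time points. The value of 0.06 at 6 days rested on the SF library of Moon, which held 1.00 GeTMM, and was -0.16 ± 0.15 without it (adjusted p = 0.453).

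RXRA, the partner receptor with the highest level of the group before culture, rose and fell back within 96 hours. From a range of 71.3 to 120 GeTMM at 0 h (median 95.4) it went to 100 to 147 (130) in ISF and 122 to 195 (157) in SF at 48 hours. At 96 hours it was back at 70.8 to 124 (95.6) in ISF and 85.1 to 163 (98.1) in SF. All 7 horses with libraries at both times went up and then down in each fluid. The rise was 0.39 ± 0.14 in ISF (adjusted p = 0.0175, limma) and 0.73 ± 0.14 in SF (adjusted p = 2.5e-05), and the fall -0.40 ± 0.14 in ISF (adjusted p = 0.0386) and -0.60 ± 0.14 in SF (adjusted p = 7.9e-04). Both SF values held under each of the 17 alternative settings, while the ISF rise was lost without Dealings or Ollie (adjusted p up to 0.1) and the ISF fall without Catnip, Dealings, Flash, Lurie or Ollie (up to 0.0952) and without the filter. Between 0 h and 10 days RXRA differed by 0.04 ± 0.14 in ISF and -0.04 ± 0.14 in SF.

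RXRB, the second partner receptor, declined in culture and more so in ISF. At 0 h it ran from 20.2 to 26.2 GeTMM (median 23.9). In ISF it ran from 11.9 to 17.0 (14.7) at 48 hours, from 9.98 to 13.3 (11.1) at 96 hours, from 7.90 to 11.2 (9.12) at 6 days and from 8.70 to 15.3 (9.32) at 10 days. In SF it ran from 14.3 to 22.4 (18.9) at 48 hours, from 12.9 to 15.7 (14.1) at 96 hours, from 11.8 to 15.6 (14.9) at 6 days and from 8.83 to 14.8 (12.7) at 10 days. At 6 days every ISF library lay below every SF library, the only time point and gene of the 40 pairs of groups at which the ranges did not overlap. The share of all genes with separate ranges was not computed, and 30.2% of all genes were called by limma at that time point.

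The RXRB difference between ISF and SF was -0.31 ± 0.11 at 48 hours (adjusted p = 0.14, limma), -0.31 ± 0.10 at 96 hours (adjusted p = 0.0398), -0.57 ± 0.10 at 6 days (adjusted p = 1.7e-05) and -0.14 ± 0.11 at 10 days (adjusted p = 0.408). The call at 6 days held under all 17 alternatives, with adjusted p values up to 0.00289, and was -0.60 ± 0.10 without the SF library of Moon. The call at 96 hours did not: it was lost without Catnip, Dealings, Dreamer, Flash, Lurie or RimRun (adjusted p up to 0.138), without the filter on low values, and without both ISF libraries that resembled another horse (adjusted p = 0.0986). The steps from 0 to 48 hours were -0.67 ± 0.11 in ISF (adjusted p = 2.7e-07, limma) and -0.36 ± 0.11 in SF (adjusted p = 0.004), and those from 48 to 96 hours -0.33 ± 0.11 in each (adjusted p = 0.0194 and 0.0146). The later steps were lost without Dreamer, Lurie or RimRun and without both doubtful libraries in ISF, and without Catnip, Dreamer or Lurie in SF. Over the whole culture RXRB fell by 1.00 on the log2 scale in ISF (SE 0.11, adjusted p = 7.7e-13, limma) and by 0.86 in SF (SE 0.11, adjusted p = 1.4e-10), in 7 of 7 horses each. At 10 days the RXRB level was between 0.365 and 0.635 of the same horse's level at 0 h in ISF, and between 0.38 and 0.727 in SF.

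NR1H3, the LXR characteristic of macrophages and liver, had the largest gain of the receptors. At 0 h it ran from 9.58 to 17.3 GeTMM (median 11.4). In ISF it ran from 44.7 to 90.0 (57.7) at 48 hours, from 64.1 to 144 (91.0) at 96 hours, from 75.3 to 298 (116) at 6 days and from 112 to 250 (162) at 10 days. In SF it ran from 32.4 to 62.3 (41.6) at 48 hours, from 68.1 to 98.4 (85.9) at 96 hours, from 52.5 to 127 (77.1) at 6 days and from 68.7 to 175 (85.4) at 10 days. The lowest cultured library was well above the highest uncultured one. The first 48 hours brought 2.25 ± 0.21 in ISF (adjusted p = 2.0e-14, limma) and 1.76 ± 0.21 in SF (adjusted p = 1.2e-10), and the next 48 hours 0.67 ± 0.21 in ISF (adjusted p = 0.0164) and 0.93 ± 0.21 in SF (adjusted p = 3.6e-04).

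From 96 hours on, NR1H3 had no called step in either fluid, yet the ISF and SF levels lay apart at the late times. The difference between fluids was 0.49 ± 0.21 at 48 hours (adjusted p = 0.265, limma) and 0.22 ± 0.20 at 96 hours (adjusted p = 0.556). It was 0.78 ± 0.20 at 6 days (adjusted p = 0.00192) and 0.80 ± 0.21 at 10 days (adjusted p = 0.00445). Both late calls held under all 17 alternatives, with adjusted p values up to 0.0466 at 6 days and 0.0377 at 10 days. The horse that ran the other way at 6 days was Moon, whose SF library had 127 GeTMM, and without that library the difference was 0.89 ± 0.20 (adjusted p = 4.3e-04). Over the whole culture each horse's NR1H3 level rose between 9.54-fold and 19.8-fold in ISF and between 6.21-fold and 10.2-fold in SF. The rise from 48 to 96 hours in ISF was not called without Lurie (adjusted p = 0.0608) or when both doubtful libraries were left out (0.0785).

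Reads of NR1H3 may not all be its own. In the RefSeq gene order of a horse assembly other than the build of the files, NR1H3 overlaps ACP2, a lysosomal phosphatase gene, and ACP2 was also the gene whose pattern was most like that of NR1H3 over the 68 libraries (Pearson r = 0.959). The libraries were strand-specific, but which strand column was counted is not given in the sources used here, so reads from a shared stretch cannot be assigned. PPARA, PPARG, PPARGC1B and NCOA2 also overlapped other annotated genes in that assembly, and PPARD, PPARGC1A, RXRA, RXRB and NR1H2 did not.

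NR1H2, the LXR found in nearly all tissues, went the other way from NR1H3. It ran from 39.8 to 47.9 GeTMM at 0 h (median 46.0), from 19.4 to 37.3 (32.1) in ISF at 10 days and from 21.4 to 32.7 (27.4) in SF at 10 days. All 7 horses had less at 10 days than at 0 h in each fluid, with a fall of 0.56 on the log2 scale in ISF (SE 0.14, adjusted p = 2.9e-04, limma) and of 0.71 in SF (SE 0.14, adjusted p = 1.2e-05). Between fluids the difference lay between -0.19 and 0.14 at the 4 time points and was never called. At 6 days the SF library of Moon held 79.96 GeTMM, while the other 7 ran from 26.5 to 34.1, and without it the difference at 6 days was -0.01 ± 0.11. The step of NR1H2 from 48 to 96 hours in ISF (-0.32, adjusted p = 0.107) was called in the fit without that library (SE 0.11, adjusted p = 0.024). The step of -0.36 ± 0.14 from 48 to 96 hours in SF (adjusted p = 0.0439, limma) was lost without the filter, with median-of-ratios scaling and when any 1 horse other than Moon was left out (adjusted p up to 0.107).

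The balance between paralogues shifted in culture. NR1H3 was at a median of 0.249 of NR1H2 before culture, above it in 0 of 8 libraries, and at 6.06 times NR1H2 in ISF and 3.21 times in SF at 10 days, above it in 7 of 7 libraries each. At 48 hours NR1H3 exceeded NR1H2 in 5 of 7 ISF libraries (median ratio 1.599) and in 3 of 7 SF libraries (median 0.889), and from 96 hours on it did so in every library of both fluids. PPARG was at a median of 0.562 of PPARD before culture and passed it in 8 of 8 libraries of each fluid at 6 days, at medians of 3.44 in ISF and 1.94 in SF. At 10 days these medians were 2.20 in ISF, with PPARG above PPARD in 6 of 7 libraries, and 1.67 in SF, with 7 of 7. RXRA stood at 3.92 times RXRB before culture and at 11.1 times in ISF and 5.87 times in SF at 6 days. The fluids were closer at the other times, at 8.63 (ISF) and 8.37 (SF) at 48 hours, 7.95 and 6.85 at 96 hours, and 7.87 and 7.20 at 10 days.

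**Figure D4:**
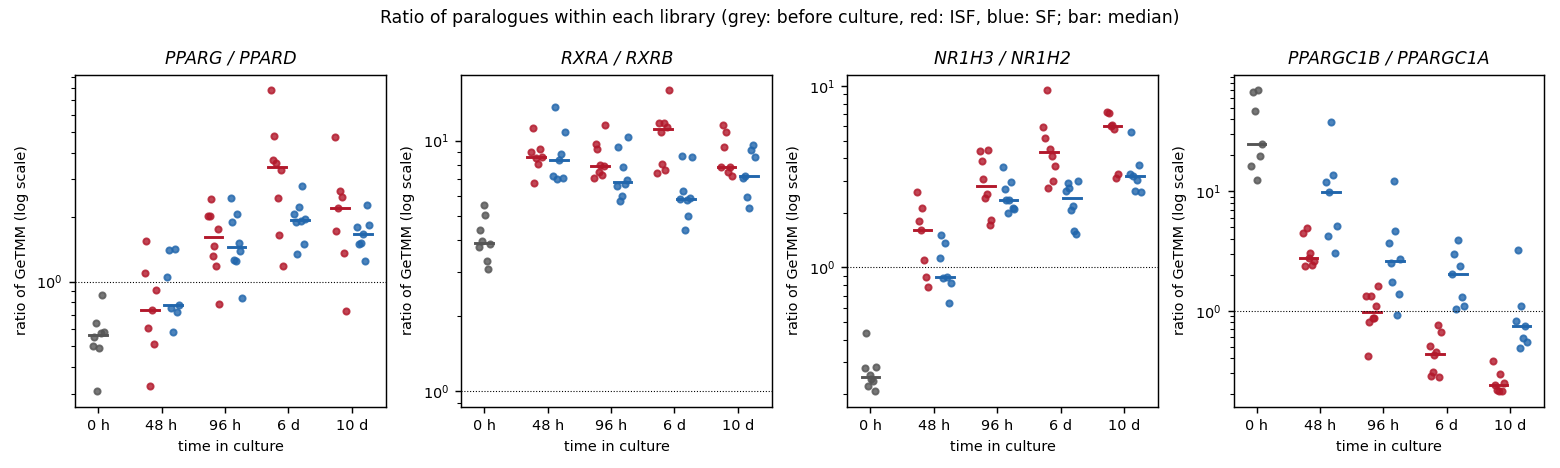
Ratio of the GeTMM of paired genes within each library on a log axis, 1 point per library, before culture (grey), in ISF (red) and in SF (blue), with a bar at the group median and a dotted line at 1. NR1H3 overtakes NR1H2 and PPARG overtakes PPARD during culture, PPARGC1B falls below PPARGC1A first in ISF, and the 2 libraries with 0 reads of PPARGC1A have no ratio.

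PPARGC1A, the inducible coactivator of mitochondrial biogenesis and fatty acid oxidation, appeared during culture and more in ISF. At 0 h its level ran from 0 to 0.126 GeTMM, and the library at 0 reads (Dreamer) allows up to 0.0665 GeTMM, counting error only. In ISF it ran from 0.312 to 0.813 GeTMM (median 0.543) at 48 hours, from 0.476 to 3.24 (2.34) at 96 hours, from 1.43 to 11.9 (5.59) at 6 days and from 6.85 to 22.8 (14.8) at 10 days. In SF it ran from 0.0361 to 0.514 (0.147) at 48 hours, from 0.121 to 1.48 (1.203) at 96 hours, from 0 to 4.21 (1.19) at 6 days and from 1.94 to 7.43 (5.93) at 10 days. At 10 days these levels rested on 242 to 811 reads per ISF library and 100 to 349 per SF library. The library at 0 in SF at 6 days was that of Moon, where 0 reads allow up to 0.117 GeTMM.

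The medians of PPARGC1A in ISF were 3.70 times those in SF at 48 hours, 1.94 times at 96 hours, 4.71 times at 6 days and 2.496 times at 10 days, although the ranges overlapped. At 48 hours both medians were low (0.543 GeTMM in ISF and 0.147 in SF), where the + 1 shrinks a difference most. The differences were 1.42 ± 0.26 at 6 days (adjusted p = 2.5e-05, limma) and 1.37 ± 0.28 at 10 days (adjusted p = 2.1e-04), against 0.35 ± 0.28 at 48 hours (adjusted p = 0.639) and 0.54 ± 0.26 at 96 hours (adjusted p = 0.196). Both late calls held under all 17 alternatives, with adjusted p values up to 0.0219 and 0.0183. Without the SF library of Moon the difference at 6 days was 1.26 ± 0.26 (adjusted p = 1.3e-04). With a pseudocount of 0.1 in place of 1 the differences were 2.21 ± 0.46 at 6 days and 1.55 ± 0.49 at 10 days.

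In ISF, the PPARGC1A step from 0 to 48 hours was 0.53 ± 0.27 (adjusted p = 0.0964, limma), with 7 of 7 horses higher. As GeTMM ratios within horses above 0 at the start, its median gain was 7.58-fold to 48 hours, 3.16-fold to 96 hours, 3.32-fold to 6 days and 1.91-fold to 10 days. In SF these medians were 1.96, 3.63, 1.80 and 2.57. On the log2(GeTMM + 1) scale, which shrinks steps at low levels, PPARGC1A in ISF rose at each step after 48 hours. The steps were 0.85 ± 0.27 to 96 hours (adjusted p = 0.0207, limma), 1.12 ± 0.26 to 6 days (adjusted p = 0.00506) and 1.26 ± 0.27 to 10 days (adjusted p = 9.2e-04). The first of these was lost without Dealings, Dreamer or Lurie (adjusted p up to 0.0738), without both ISF libraries of Dealings and Dreamer at once (0.0578) and with limma-voom (0.0770). The second was lost when other groups were kept out of the fit (0.0556). In SF the called step was from 6 to 10 days, at 1.31 ± 0.27 (adjusted p = 0.00232), which a fit of only those 2 groups did not call (adjusted p = 0.163), and the step from 48 to 96 hours was 0.65 ± 0.27 (adjusted p = 0.0678), called in 6 of 17 alternatives, the horse as a block among them (0.0221). From 0 h to 10 days the gain was 3.76 ± 0.27 in ISF and 2.39 ± 0.27 in SF, values that depend on the pseudocount because the starting level was close to 0: they were 6.37 ± 0.48 and 4.82 ± 0.48 with a pseudocount of 0.1.

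PPARGC1B, the second PGC-1 coactivator, changed little beside PPARGC1A. It ran from 1.17 to 3.82 GeTMM at 0 h (median 1.71), from 2.41 to 4.81 (3.24) in ISF at 10 days and from 2.91 to 6.27 (3.72) in SF at 10 days. All 7 horses had more at 10 days than at 0 h in each fluid, by 0.53 ± 0.22 in ISF (adjusted p = 0.0253, limma) and 0.68 ± 0.22 in SF (adjusted p = 0.00492). The ISF call was lost without Lurie or Ollie (adjusted p up to 0.136). Between fluids the difference lay between -0.22 and 0.11 at the 4 time points. PPARGC1B was at a median of 24.9 times PPARGC1A before culture (7 libraries with a ratio) and at 0.238 times in ISF and 0.745 times in SF at 10 days.

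NCOA2, a coactivator of the p160 steroid receptor family, fell in both fluids. At 0 h it ran from 16.8 to 37.1 GeTMM (median 28.5). In ISF it ran from 6.70 to 27.0 (15.5) at 48 hours, from 6.51 to 10.8 (9.71) at 96 hours, from 5.25 to 11.04 (7.91) at 6 days and from 4.74 to 8.88 (5.74) at 10 days. In SF it ran from 18.1 to 34.3 (23.9) at 48 hours, from 9.93 to 14.8 (13.9) at 96 hours, from 1.45 to 15.3 (10.9) at 6 days and from 6.81 to 18.4 (9.87) at 10 days. From 0 to 48 hours it fell in ISF (-0.77 ± 0.23, adjusted p = 0.00397, limma), where all 7 horses went down, and in SF that step was -0.12 ± 0.23 and was not called. The difference between fluids at 48 hours was itself not called, as given next. From 48 to 96 hours NCOA2 fell in SF (-0.87 ± 0.23, adjusted p = 0.0028). The ISF value for the first 48 hours was lost without RimRun (adjusted p = 0.0518). A further fall of 0.69 on the log2 scale followed in ISF to 96 hours (SE 0.23, adjusted p = 0.0266), lost without Dreamer, Lurie or Ollie (adjusted p up to 0.124). By 10 days NCOA2 was at 0.158 to 0.395 of the same horse's level at 0 h in ISF and at 0.277 to 0.587 in SF.

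NCOA2 was lower in ISF than in SF at all 4 time points by its medians, and at 6 days the call depended on 1 library. The differences were -0.65 ± 0.24 at 48 hours (adjusted p = 0.157, limma), -0.46 ± 0.22 at 96 hours (adjusted p = 0.183), -0.23 ± 0.22 at 6 days (adjusted p = 0.472) and -0.71 ± 0.24 at 10 days (adjusted p = 0.0256). The SF library of Moon at 6 days held 1.45 GeTMM of NCOA2, while the other 7 ran from 8.76 to 15.3. Without it the difference at 6 days was -0.52 ± 0.18 and was called (adjusted p = 0.018), and so was that at 48 hours (adjusted p = 0.0279), whose value stayed the same while the SE of the joint fit went to 0.19. The call at 10 days was lost without Catnip, Dealings, Lurie or Ollie, with adjusted p values of 0.0543, 0.154, 0.0674 and 0.0618.

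Genes known as targets of these receptors were described by list, with the lists chosen from textbook knowledge. Of 26 listed PPAR target genes, 23 were tested. From 0 to 48 hours, 12 were called higher and 3 lower in ISF (median log2 change 0.64, against -0.03 over all genes), and 9 higher and 5 lower in SF (median 0.26, against -0.01). These calls were 65.2% of the list in ISF and 60.9% in SF, where 52.7% and 45.4% of all genes were called. FABP5, a fatty acid carrier, rose most among those called, by 5.14 ± 0.27 in ISF and 4.41 ± 0.27 in SF. ACSL1, which activates long-chain fatty acids, fell by 1.32 in ISF and by 1.24 in SF (SE 0.25 each). The 0 h to 10 days comparison called 11 higher and 5 lower in ISF (median 0.67) and 13 higher and 6 lower in SF (median 0.84), which is 69.6% and 82.6% of the list, where 74.5% and 69.6% of all genes were called.

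Between fluids, 0 of the 23 PPAR targets were called at 48 hours, 2 higher in ISF at 96 hours, 7 higher and 3 lower at 6 days and 5 higher and 2 lower at 10 days. As shares of the list these were 0%, 8.70%, 43.5% and 30.4%, against 1.68%, 10.5%, 30.2% and 20.8% of all genes. Without Moon's SF library of 6 days there were 3, 6, 13 and 8 calls (13.0%, 26.1%, 56.5% and 34.8%), against 5%, 16.7%, 36.2% and 28.3% of all genes. The list's medians were 0.22, 0.28, 0.26 and 0.16 in that order, against -0.02 to 0 over all genes. LPL, the lipoprotein lipase that frees fatty acids from lipoproteins, was the highest of those called at 96 hours (1.82 ± 0.48, adjusted p = 0.00774, limma), 6 days (2.37 ± 0.48, adjusted p = 1.0e-04) and 10 days (1.39 ± 0.51, adjusted p = 0.0451). The value at 6 days held under all 17 alternatives, the value at 96 hours was lost without Ollie, and that at 10 days was lost in 10 alternatives. CPT1A, the gate of mitochondrial fatty acid oxidation, was higher in ISF at 96 hours (0.84 ± 0.26, adjusted p = 0.0251), a call that 4 alternatives did not give. The lowest of those called were MGLL, a monoacylglycerol lipase, at 6 days (-1.62 ± 0.41, adjusted p = 0.00174) and TXNIP, an inhibitor of thioredoxin and glucose uptake, at 10 days (-1.75 ± 0.43, adjusted p = 0.00185).

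Of 18 listed LXR target genes, 14 were tested. From 0 to 48 hours 8 were called higher and 1 lower in each fluid, with a median log2 change of 0.77 in both, and from 0 h to 10 days 10 were called higher and 1 lower in ISF (median 2.37) and 11 higher and 1 lower in SF (median 2.01). The calls over the first 48 hours were 64.3% of the list in each fluid (52.7% and 45.4% of all genes), and those to 10 days 78.6% in ISF and 85.7% in SF (74.5% and 69.6% of all genes). APOE, the apolipoprotein that carries cholesterol out of macrophages, rose most, by 7.55 ± 0.36 in ISF and 6.99 ± 0.36 in SF over the first 48 hours. SREBF1, a regulator of fatty acid synthesis, was the 1 called lower, at -1.28 ± 0.26 in each fluid. ABCA1, the cholesterol exporter, was not picked out by the naming rule and was added after its values were seen, as the best known of these genes. Its median went from 4.81 GeTMM at 0 h to 26.9 (ISF) and 24.1 (SF) GeTMM by 48 hours, and its difference between fluids at 6 days was 0.70 ± 0.41 (adjusted p = 0.202, limma).

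Between fluids, 0 of the 14 LXR targets were called at 48 hours, 1 (lower) at 96 hours, and 1 higher and 1 lower at each of 6 and 10 days, with medians of 0.08, -0.11, 0.19 and 0.06. The shares of the list were 0%, 7.14%, 14.3% and 14.3%, against 1.68%, 10.5%, 30.2% and 20.8% of all genes. Without Moon's SF library of 6 days the counts were 0, 2, 1 and 2, while the share of all genes called was higher at each time point, as given above for the PPAR targets. The one higher was TTC39B, an adaptor that promotes the breakdown of LXR protein, at 0.48 ± 0.19 at 6 days (adjusted p = 0.0447, limma, lost in 10 of 17 alternatives) and 0.71 ± 0.20 at 10 days (adjusted p = 0.00717). The one lower was SMPDL3A, a phosphodiesterase, at -1.198 ± 0.24 at 96 hours (adjusted p = 3.7e-04), -1.31 ± 0.24 at 6 days (adjusted p = 2.3e-05) and -0.72 ± 0.26 at 10 days (adjusted p = 0.0379, lost in 6 alternatives).

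**Figure D5:**
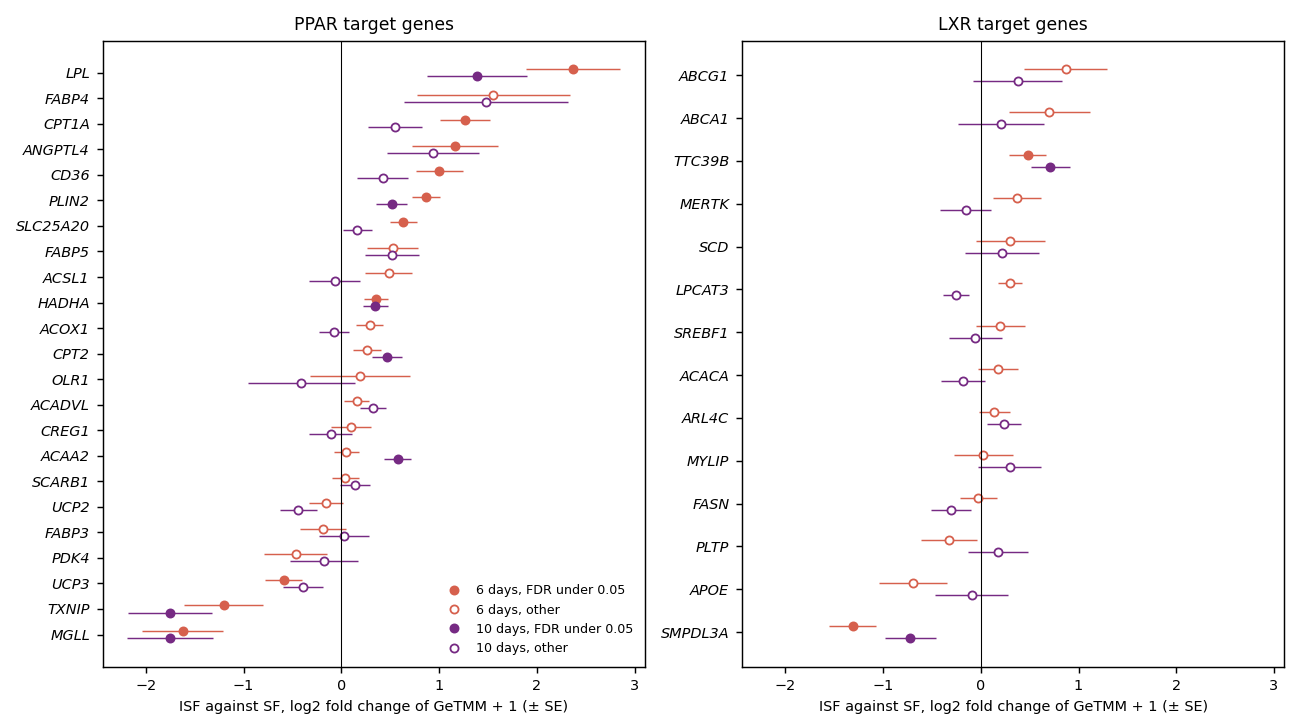
Log2 fold change of GeTMM + 1 between ISF and SF at 6 days (orange) and 10 days (purple) for the tested PPAR targets (left, 23 genes) and LXR targets (right, 14 genes), with standard errors and filled points at an adjusted p under 0.05. LPL lies farthest right at 6 days and MGLL and TXNIP farthest left among the PPAR targets, and among the LXR targets the filled points are TTC39B and SMPDL3A.

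Of 17 listed partners of PGC-1 proteins and mitochondrial biogenesis genes, 12 were tested. Between fluids 0 were called at 48 and at 96 hours, 1 at 6 days and 1 at 10 days (8.33% of the list at each, against 30.2% and 20.8% of all genes). Without Moon's SF library of 6 days there were 0, 1, 3 and 3 in order of time (25% at each of the last 2, against 36.2% and 28.3% of all genes). The 2 called with all libraries were PPRC1, the third member of the PGC-1 family, higher in ISF at 6 days (0.41 ± 0.13, adjusted p = 0.0135, limma, lost in 2 alternatives), and POLG, the mitochondrial DNA polymerase, lower at 10 days (-0.36 ± 0.12, adjusted p = 0.0235, lost in 5). From 0 to 48 hours 3 were called higher and 2 lower in ISF, where PPRC1 rose by 1.02 ± 0.14, and 4 higher and 2 lower in SF, where SIRT3, a mitochondrial deacetylase, rose by 1.04 ± 0.16. POLG fell in both fluids, by 0.47 and by 0.37 (SE 0.12 each). The calls were 41.7% of the list in ISF and 50.0% in SF, where 52.7% and 45.4% of all genes were called, and the median change of the 12 genes was 0.08 in ISF and 0.20 in SF.

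Coactivators beside the members numbered 15, all tested. Between fluids 0 were called at 48 hours, 1 higher and 1 lower in ISF at 96 hours, 2 lower at 6 days and 1 higher and 2 lower at 10 days. These were 0%, 13.3%, 13.3% and 20% of the list, against 1.68%, 10.5%, 30.2% and 20.8% of all genes. Without Moon's SF library of 6 days there were 2, 2, 7 and 4, in a fit that also called more of all genes at each time point. NCOA4, best known as the receptor for ferritin breakdown, was lower in ISF at 96 hours (-0.57 ± 0.15, adjusted p = 0.00839, limma) and 6 days (-0.69 ± 0.15, adjusted p = 3.4e-04), under all 17 alternatives each. PRMT1, an arginine methyltransferase, was higher at 96 hours (0.36 ± 0.12, lost in 10 alternatives), LPIN1 was lower at 6 days (-0.60 ± 0.21, lost in 5), and at 10 days SNW1 was higher (0.30 ± 0.10, lost in 5) and CREBBP, a histone acetyltransferase, lower (-0.58 ± 0.19, lost in 3). From 0 to 48 hours CITED2 fell most among those called, by 1.87 in ISF and by 1.78 in SF (SE 0.23 each), and PRMT1 rose by 0.82 ± 0.12 and 0.56 ± 0.12. Of the 9 corepressors listed, 8 were tested: 4 rose in ISF and 5 in SF over the first 48 hours with 0 falling, which is 50.0% and 62.5% of the list against 52.7% and 45.4% of all genes. NRIP1, which silences metabolic genes with nuclear receptors, had the highest values, at 1.11 ± 0.36 in ISF and 1.40 ± 0.36 in SF. Between fluids 1 corepressor was called (12.5% at 6 days, against 30.2% of all genes), HDAC3 at -0.31 ± 0.09 (adjusted p = 0.00476), which a fit of only the 2 groups did not call. Without Moon's SF library of 6 days there were 2 at 96 hours, 4 at 6 days and 3 at 10 days.

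Of 22 listed other nuclear receptors that pair with RXR or sense lipids, 13 were tested, and between fluids 1 was called at 48 hours. At 96 hours 4 were higher and 3 lower in ISF, at 6 days 4 and 4, and at 10 days 0 and 3. The shares were 7.69%, 53.8%, 61.5% and 23.1% of the list, against 1.68%, 10.5%, 30.2% and 20.8% of all genes. Without both ISF libraries of doubtful identity 2 were higher and 2 lower at 96 hours (30.8%, against 6.18% of all genes). VDR, the vitamin D receptor, was higher in ISF by 1.56 ± 0.33 at 48 hours (adjusted p = 0.00394, limma, lost without Catnip), 1.66 ± 0.31 at 96 hours (adjusted p = 1.3e-04) and 2.01 ± 0.31 at 6 days (adjusted p = 8.2e-07). THRB, a thyroid hormone receptor, was lower in ISF, at -0.76 ± 0.20 at 96 hours, -1.14 ± 0.20 at 6 days and -1.56 ± 0.22 at 10 days. THRA was the highest of the 3 called at 10 days, at -0.70 ± 0.24 (lost in 8 alternatives). Over the first 48 hours VDR rose by 3.11 ± 0.32 in ISF and NR1D2, a heme-binding clock receptor, by 1.59 ± 0.29 in SF, while NR4A2 fell by 1.49 in ISF (SE 0.18) and NR4A1 by 1.94 in SF (SE 0.32), both orphan receptors of the immediate early response.

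Genes that make or remove lipid ligands numbered 26, of which 17 were tested. Between fluids 1 was called at 48 hours and 4 were called at 96 hours. By 6 days 7 were called, and by 10 days 8 (2 higher, 6 lower) with a list median of -0.34. The shares were 5.88%, 23.5%, 41.2% and 47.1% of the list, against 1.68%, 10.5%, 30.2% and 20.8% of all genes. The retinoid reductase DHRS3 was higher in ISF at 48 hours (1.47 ± 0.25, adjusted p = 3.1e-04, limma) and 96 hours (1.27 ± 0.23, adjusted p = 1.0e-04), and DHRS9, a retinol dehydrogenase, at 6 days (1.74 ± 0.42) and 10 days (1.74 ± 0.45). PTGR1, which inactivates leukotriene B4 and prostaglandins, was lower in ISF at 96 hours (-2.13 ± 0.48, adjusted p = 0.00131). HPGDS, the enzyme that makes the prostaglandin precursor of PPARG ligands, was lower in ISF at 6 days (-2.59 ± 0.25, adjusted p = 3.9e-12) and 10 days (-2.497 ± 0.27, adjusted p = 3.9e-10). It had risen in both fluids by 48 hours, by 1.86 ± 0.26 in ISF and 2.40 ± 0.26 in SF, while ALOX5, which starts leukotriene synthesis, fell by 2.01 and by 2.02 (SE 0.23 each).

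Markers of other cell types moved with time and with fluid. The summed level of 7 macrophage markers ran from 184 to 307 GeTMM at 0 h, from 14796 to 27364 in ISF and 7548 to 13818 in SF at 48 hours, and from 47200 to 82485 in ISF and 29897 to 75174 in SF at 10 days, with SPP1 and GPNMB the most abundant. Of 8 neutrophil precursor markers, 6 were measured, and their sum ran from 11356 to 20997 GeTMM at 0 h and from 0.759 to 63.7 in ISF and 2.15 to 1648 in SF at 10 days. The sum of 4 erythroid markers ran from 76.2 to 1230 GeTMM at 0 h and did not exceed 1.53 at 10 days. The gains of NR1H3 and PPARG and the losses of RXRB, NR1H2 and NCOA2 thus ran beside a shift from precursor to macrophage markers, whose part in those results was not tested.

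Between fluids, all 5 T cell markers and all 4 measured B cell markers were lower in ISF at 6 and 10 days. The summed T cell level ran from 8.57 to 47.3 GeTMM in ISF and 28.6 to 228 in SF at 6 days, and from 4.33 to 14.8 in ISF and 23.5 to 199 in SF at 10 days. The summed B cell level ran from 1.29 to 29.6 GeTMM in ISF and 11.8 to 115 in SF at 6 days, and from 1.42 to 10.2 and 6.10 to 139 at 10 days. Of the 6 neutrophil precursor markers 5 were lower in ISF at 6 days and 3 at 10 days, and of the 4 measured cell cycle markers 3 were higher in ISF at 6 days. Among the 7 macrophage markers 1 was higher in ISF at 10 days, and 1 higher and 1 lower at 6 days. Stromal markers were lower in ISF at 10 days for 5 of 5 genes, with sums from 0.123 to 49.2 GeTMM in ISF and from 0.406 to 4038 in SF, the highest being the library of Lurie. The part of these cells in the differences of PPARGC1A, NR1H3, RXRB, NCOA2 and PPARD was not tested. Of the adipocyte markers, LEP was at 0 in all 60 cultured libraries, PLIN1 did not exceed 0.0877 GeTMM and ADIPOQ did not exceed 2.54 GeTMM in culture, and the summed list was at most 17.2 GeTMM there, most of it LIPE, at up to 17.1 GeTMM. ADIPOQ and LIPE, the 2 tested, were both lower in ISF at 6 and 10 days.

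The genes most like each member were found by Pearson's r of log2(GeTMM + 1) over all 68 libraries, which share the culture times and the horses, so r describes these libraries and has no p. PPARGC1A was most like MTMR2 (r = 0.965), NDST1 (0.952) and NSF (0.945), and NCOA2 most like ATF7IP (0.961), MDM4 (0.954) and AGO4 (0.952). NR1H3 was followed, after ACP2, by PLPP2 (0.956) and DENND2A (0.940), and PPARG by SLC7A8 (0.926), MPP1 (0.916) and SNX1 (0.907). RXRB was most like EZH1 (0.916), HDAC11 (0.892) and CTDSP1 (0.872), and NR1H2 most like TYROBP (0.902), TRIR (0.863) and CYHR1 (0.862). The other members had less close neighbours.

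For RXRA these were PTPRE (0.812), MEF2D (0.776) and MARCHF6 (0.763), and for PPARA they were CRYBG3 (0.847), RNF169 (0.824) and SETD7 (0.822). For PPARGC1B they were TMEM119 (0.747), ADO (0.744) and STX3 (0.742), and for PPARD, whose pattern was least shared, TLE3 (0.696), P2RY14 (0.677) and CIC (0.672). Without the 3 libraries named at the outset, 16 of the 30 neighbours stayed among the first 3, and the closest gene changed for PPARD, PPARGC1B and NCOA2 and stayed for the other 7. Without the uncultured libraries, 13 of the 30 stayed. PPARG and PPARD kept 0 and 1 of theirs, respectively, and the 3 neighbours of PPARG in the 60 cultured libraries had r of at most 0.742.

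Among the members themselves, PPARG and NR1H3 were the most alike over the 68 libraries (r = 0.838), and each ran against RXRB (r = -0.770 and -0.820). NCOA2 ran with RXRB (r = 0.715) and against NR1H3 (r = -0.721). In the 60 cultured libraries the r of PPARG with NR1H3 was 0.494, so much of their likeness lay in the step from 0 h into culture. There the r of PPARA with NR1H2 was -0.709, the lowest of the pairs, but it was -0.623 without Moon's SF library of 6 days. In those 59 libraries PPARGC1A with NCOA2 was the lowest, at -0.759 against -0.595 with that library. PPARGC1A was most like PPARGC1B (r = 0.633) and NR1H3 (0.612) in the 60 libraries, and these were 0.656 and 0.645 in the 59.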

How the data were processed

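RNA was sequenced as stranded paired-end reads from 68 BMNC libraries. According to the study's methods the authors trimmed reads with TrimGalore and aligned and counted them with STAR 2.7.2a on EquCab3.0, and per the labels edgeR was used. The authors deposited GeTMM values, which are RPKM-like reads per kilobase rescaled across libraries by edgeR's trimmed means. Which strand column was counted is not given in the sources used here. Whole reads behind the deposited RPKM-like values were recovered from their steps for 24064 of 24065 genes (99.9958%, within 0.02 reads), and this recovery was checked on simulated data. Between 15653436 and 35971635 reads per library lay on genes, so 1 read on a transcript of 1 kilobase was worth 0.0338 to 0.0979 GeTMM. Intervals and limits of a 0 count cover counting error only.

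Groups came from the labels. Genes reaching 0.5 GeTMM in 7 or more libraries (14570) entered limma 3.58.1 (lmFit, eBayes with trend) on log2(GeTMM + 1) in 1 fit of the 9 groups, without a horse term, at an adjusted p under 0.05. The study's methods name a count model. The files hold GeTMM, so limma was the main test and limma-voom on recovered reads an alternative. On simulated data with 200 of 14570 genes changed by 2 on the log2 scale, limma recovered 97% (ISF against SF at 48 hours), 99.5% (96 hours), 99% (6 days) and 98.5% (10 days) of them. The largest difference of the 10 genes between fluids was 1.42, so these shares do not measure how often differences of their size would be found. Replicate numbers are horses and therefore pair libraries: deviations from group means of the ISF and SF libraries of a horse had a median r of 0.358 over 30 pairs, 26 of them over 0.1. The pairs were used in exact sign-flip permutation tests, adjusted over 40 tests. Likeness was Pearson's r. Other settings tried were a pseudocount of 0.1, no filter, median-of-ratios scaling, the horse as a block, a fit of only the groups compared, library weights, leaving out the 3 libraries that stood apart or resembled another horse, and leaving out each horse. Versions were R 4.3.3, Python 3.11.15, numpy 2.4.6, pandas 2.3.3, scipy 1.17.1 and matplotlib 3.10.9.

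The 10 genes and all lists were chosen with earlier results of these data known. Named were all 10 genes, for each pathway list the called gene with the highest and the lowest change between fluids and from 0 to 48 hours, and the 3 genes most like each member. Gene order came from RefSeq, from an assembly other than that of the files, whose coordinates and sequences were not used. No genome of the files' build was used here, and no sequence is printed.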

Additional observations from a re-analysis of the deposited data

Results flagged for a closer look

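In 7 of 90 sets of libraries (10 genes in 9 groups), 1 library lay farther from the rest than Dixon's 95% criterion allows, where chance gives about 1 in 20 sets. Of the 7, 3 are the SF library of Moon at 6 days: PPARA was 1.00 GeTMM there against 4.24 to 9.51 in the other 7 libraries, NCOA2 was 1.45 against 8.76 to 15.3, and NR1H2 was 79.96 against 26.5 to 34.1. PPARA was also low in the ISF library of RimRun at 48 hours, at 1.81 GeTMM against 3.18 to 4.14. PPARD was high in the ISF library of RimRun at 96 hours (36.5 GeTMM against 14.6 to 20.8) and in the SF library of Moon at 10 days (33.3 GeTMM against 16.8 to 22.6). NR1H3 was high in the SF library of Dealings at 10 days, at 175 GeTMM against 68.7 to 97.3.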

How the results depend on the processing

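No called value changed sign under any alternative. Single-gene results of the 10 members kept their side of the threshold in 2760 instances, gained a call in 55 and lost one in 75. Numbers of the 10 genes called that differed by more than 1.5 times were as follows, and the cause was not tested. The share of all genes called can move with the setting too, as it did without Moon's SF library of 6 days. That share is not set beside the counts in this section, so they describe the settings and are not results about the 10 genes. Library weights gave 4 (ISF against SF at 48 hours), 3 (96 hours), 3 (ISF 96 hours to 6 days), 8 (SF 48 to 96 hours) and 1 (change of the fluid difference from 6 to 10 days). A fit of only the groups compared gave 2 (ISF against SF at 96 hours), 0 (ISF 96 hours to 6 days), 1 (ISF 6 to 10 days), 8 (SF 48 to 96 hours) and 0 (SF 6 to 10 days). No filter gave 0 at 96 hours. Leaving out Moon's SF library of 6 days, there was 1 call at 48 hours and there were 2 for ISF 96 hours to 6 days. With both ISF libraries of 96 hours from Dealings and Dreamer left out, there were 0 at 96 hours, 2 for ISF 48 to 96 hours and 2 for ISF 96 hours to 6 days.

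With the horse as a block, which uses the pairing of libraries, 2 genes were called for ISF 96 hours to 6 days in place of 1. It also gave 5 in place of 4 at 10 days, 7 in place of 6 for ISF 48 to 96 hours and 7 in place of 5 for SF 48 to 96 hours, lost no call and changed no other. Limma-voom gave 5 at 10 days, 7 for ISF 0 to 48 hours and 6 for SF 48 to 96 hours. The sign-flip tests gave 0 in place of 14 with median-of-ratios scaling. They also gave 0 without the libraries of Dealings and Dreamer, which enter only the pairs at 96 hours, and 0 without each horse. When pairs are left out, the smallest possible p goes up.

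Leaving out 1 horse at a time gave between fluids 0 to 1 genes (48 hours), 0 to 1 (96 hours), 3 to 5 (6 days) and 2 to 4 (10 days). Over time it gave in ISF 5 to 6 (0 to 48 hours), 0 to 8 (48 to 96 hours), 1 to 2 (96 hours to 6 days), 1 to 2 (6 to 10 days) and 6 to 8 (0 h to 10 days), and in SF 5 to 5, 3 to 6, 0 to 0, 1 to 1 and 9 to 9 for the same intervals. With a pseudocount of 0.1 the log2 levels of the erythroid, stromal and adipocyte lists, averaged over markers and libraries, were -0.637, -1.05 and -1.51, below those with a pseudocount of 1. With the cultured libraries alone, 13 of 30 neighbours stayed, and 16 without the 3 libraries in doubt, a setting chosen after seeing the data, as were list counts without them. Depth limits PPARGC1A, which had 3 or fewer reads in 8 libraries.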
